A study of Mus musculus with 12 samples.

Results

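The 10 genes described here encode surface molecules linked to signalling between macrophages and T cells: Cd40, Cd80, Cd86, Cd83, Cd274, Pdcd1lg2, Icosl, Icam1, Cd48 and Havcr2. They were picked by symbol, as co-stimulatory and checkpoint ligands and their close companions, with no threshold on their expression, though earlier results of these data were known. All 10 were found among the 47937 genes of the count table, and all 10 held enough reads to enter the test, which covered 11760 genes. RNA was sequenced from macrophages of C57BL/6 mice aged 6 to 8 weeks, grown from bone marrow for 7 days in CSF-1 (20 ng/ml), a growth factor that all 4 groups received. The 4 groups of 3 libraries were resting macrophages (M0), macrophages given IFNγ (50 ng/ml) and LPS (20 ng/ml) for 18 h (IFNγ + LPS, also called inflammatory macrophages), and each of these with the inhibitor T863 (DGAT1i, 50 μM, 18 h). T863 blocks DGAT1, an enzyme that joins a last fatty acid to diacylglycerol to make triacylglycerol. The titles of the M0 libraries carry no time, and in 2 of the 3 resting libraries treated with DGAT1i the description carries a compound number other than T863. The labels do not say whether libraries of a group came from separate cultures or animals, so the p-values measure the spread between these libraries only.

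T cells need a signal from the antigen receptor and further signals from the presenting cell. CD80 and CD86 supply the best known of these by binding CD28, and they also bind the inhibitory receptor CTLA-4, while PD-L1 (Cd274) and PD-L2 (Pdcd1lg2) bind the inhibitory receptor PD-1. CD40 works in the other direction, since T cells carrying CD40 ligand engage it on the macrophage and drive NF-κB signalling there. ICAM-1 and CD48 hold cells in contact, ICOS ligand binds ICOS, CD83 marks activated antigen-presenting cells and TIM-3 (Havcr2) is an inhibitory receptor that macrophages and dendritic cells can carry as well as T cells.

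Each library held 4996014 to 6621671 reads on genes. Levels are given as CPM, that is counts scaled to library size with edgeR's TMM factors, and 1 CPM was worth 4.28 to 7.58 reads. TMM factors ranged from 0.846 to 1.19. Fold changes and their tests come from the quasi-likelihood model of edgeR, with p-values adjusted over all genes tested by the Benjamini-Hochberg method, and a gene was taken as changed at an adjusted p under 0.05. In these bulk cultures, fewer expressing cells and less RNA per cell cannot be told apart. All 10 markers of macrophages passed the filter, with a summed level of 13441 to 14674 CPM in M0, 8750.3 to 9414 CPM in IFNγ + LPS, 16394 to 18411 CPM in M0 with DGAT1i and 8319 to 9256 CPM in IFNγ + LPS with DGAT1i. IFNγ + LPS raised 4 and lowered 6 of them, and DGAT1i raised 1 and lowered 4 in IFNγ + LPS and raised 3 and lowered 2 in M0, where 73.3%, 29.8% and 24.4% of all genes tested were called in these comparisons.

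The first comparison asked which of these molecules inflammatory activation brings up. IFNγ + LPS raised 7 of the 10 genes, with Cd274, Cd86 and Cd40 rising most among those with reads in M0. Cd80 and Cd83 rose far less, and Icosl, Cd48 and Havcr2 did not pass the test. Of all genes tested, 73.3% were called in this comparison, 37.1% as higher and 36.2% as lower. The share of the 10 genes called was thus close to that of all genes, whereas 37.1% of all genes rose against 7 of these 10. The median log2 fold change of the 10 genes was 3.11, against 0.01 for all genes tested. It includes the fitted value of Pdcd1lg2, which depends on a prior count, and over the 9 other genes it was 1.35.

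**Figure D1:**
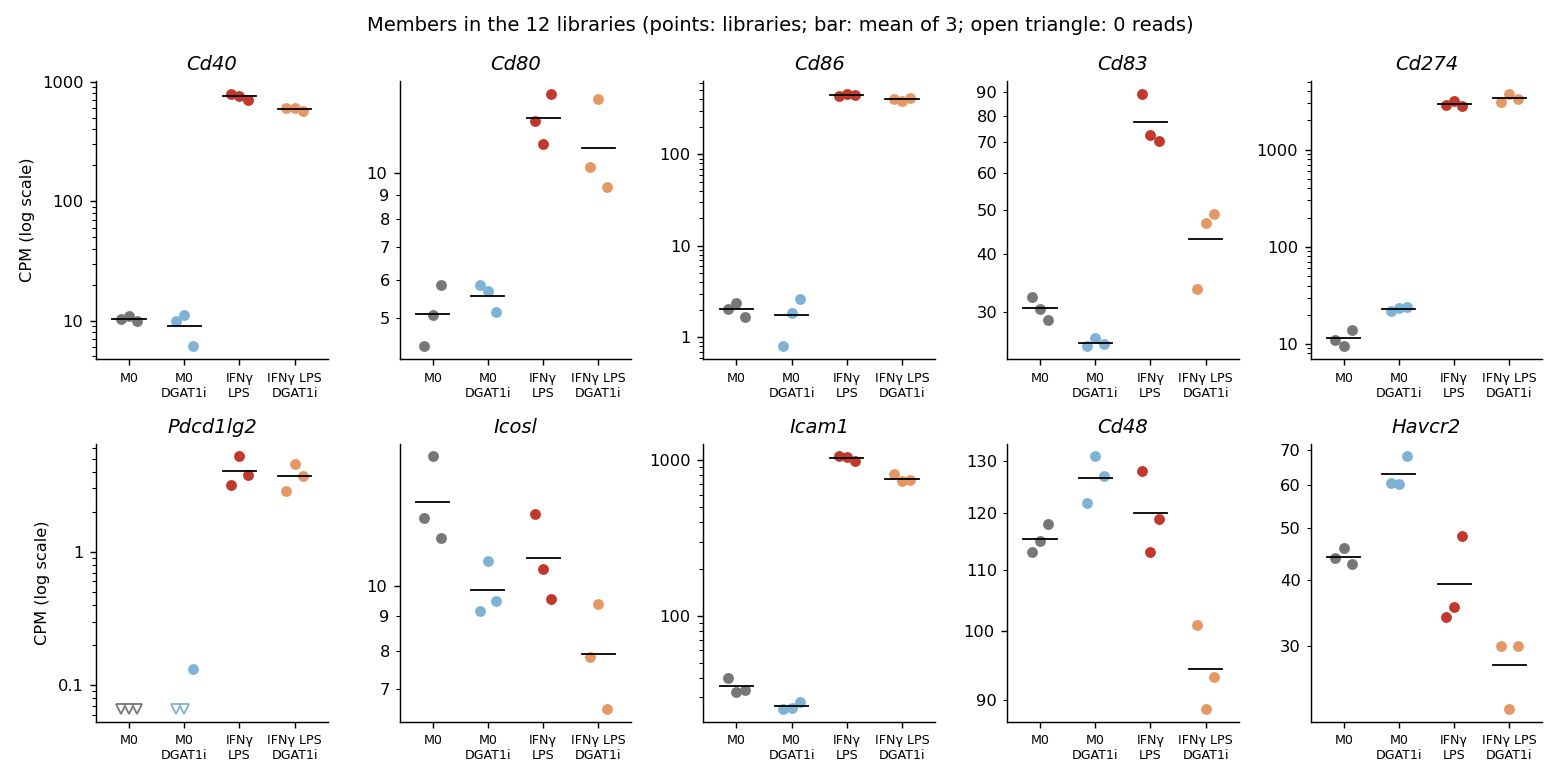
Levels of the 10 genes in CPM on a log scale (y axis, its own range in each panel) in the 4 groups (x axis), with a point for each library, a bar at the mean of 3 where all have reads, and open triangles for libraries with 0 reads. Cd40, Cd86, Cd274 and Icam1 stand far above M0 in both groups given IFNγ + LPS, while Icosl, Cd48 and Havcr2 do not stand far from M0 there, and Havcr2 runs from 22.9 to 68.0 CPM over the 12 libraries.

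Cd40 (ENSMUSG00000017652.16, chromosome 2 from 165055627 to 165072948, plus strand, GENCODE M21 on GRCm38, as for all positions here unless RefSeq is named), the receptor that helper T cells engage, stood at 10.2, 10.9 and 9.89 CPM in the 3 M0 libraries. After IFNγ + LPS it stood at 793, 755 and 708 CPM. The groups were far apart, and the libraries of each were close together. The rise was 72.6-fold (log2 fold change 6.18, standard error 0.09, edgeR adjusted p = 2.80e-39).

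Cd86 (ENSMUSG00000022901.13, chromosome 16 from 36603869 to 36666081, minus strand) was nearly silent in M0, with 14, 18 and 12 reads or 2.03, 2.40 and 1.67 CPM. In IFNγ + LPS it stood at 430.2, 461 and 449 CPM, so that every inflammatory library was above every resting library. Its log2 fold change was 7.76 (standard error 0.11, edgeR adjusted p = 1.19e-51), a 217-fold rise. Cd80 (ENSMUSG00000075122.4, chromosome 16 from 38455561 to 38496335, plus strand), which binds the same receptors, moved from 4.36, 5.06 and 5.85 CPM to 12.8, 11.5 and 14.6 CPM. These groups did not overlap either, but the rise was only 2.54-fold (log2 fold change 1.35, standard error 0.19, edgeR adjusted p = 5.55e-09). Per kilobase of exon, the scale on which genes can be set side by side, Cd86 stood at 0.289 to 0.479 times the level of Cd80 in the M0 libraries and at 31.1 to 40.5 times in the IFNγ + LPS libraries. The pair thus changed places, from more Cd80 RNA at rest to more Cd86 RNA after activation in every library.

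Cd83 (ENSMUSG00000015396.3, chromosome 13 from 43784775 to 43803132, plus strand), a surface marker of mature antigen-presenting cells, stood at 32.3, 30.4 and 28.7 CPM in M0 and at 89.3, 72.5 and 70.6 CPM in IFNγ + LPS. All inflammatory libraries were above all resting libraries. The rise was 2.54-fold (log2 fold change 1.34, standard error 0.10, edgeR adjusted p = 3.93e-15).

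Cd274 (ENSMUSG00000016496.7, chromosome 19 from 29367455 to 29388095, plus strand), which encodes PD-L1, showed the largest fold change of the 9 genes that had reads in M0. Its 3 M0 libraries held 11.0, 9.46 and 13.9 CPM. After IFNγ + LPS they held 2869, 3144 and 2818 CPM, from 13625, 17464 and 15043 reads. No level in between was seen in these groups. On the log2 scale the change was 8.0 (standard error 0.10, edgeR adjusted p = 2.34e-34), a 257-fold rise, at rank 85 from the highest fold change of all 11760 genes. By level per kilobase Cd274 moved from place 7698 to place 51 among 11726 genes. Of its exon bases, 511, or 14.11%, lie opposite an antisense gene that has no row in the count table, and the strand setting of the counting is not given in the sources used here.

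Pdcd1lg2 (ENSMUSG00000016498.9, chromosome 19 from 29410919 to 29471161, plus strand), which encodes PD-L2 and lies next to Cd274 on the same strand, had 0 reads in each M0 library and 15, 29 and 20 reads, or 3.16, 5.22 and 3.75 CPM, in IFNγ + LPS. Against a floor of 3 reads over the M0 group, which covers counting error only since the reads carry no molecular identifiers, it was at least 29.4-fold higher (edgeR adjusted p = 1.92e-12). Both PD-1 ligands therefore rose from the same stretch of chromosome 19, but to very different levels. Per kilobase, Cd274 stood at 813 ± 48.4 CPM (SD, n = 3) and Pdcd1lg2 at 2.06 ± 0.542 CPM (SD, n = 3) after IFNγ + LPS.

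Icam1 (ENSMUSG00000037405.7, chromosome 9 from 21015985 to 21028817, plus strand), the ligand of the integrin LFA-1, stood at 40.0, 32.6 and 33.6 CPM in M0 and at 1061, 1044 and 995 CPM in IFNγ + LPS. It was already well expressed at rest, and its inflammatory libraries lay within a narrow band. The rise was 29.2-fold (log2 fold change 4.87, standard error 0.07, edgeR adjusted p = 2.32e-52). As with Cd274, an antisense gene without a row in the table lies opposite 511 of its exon bases, which is 11.72% of them.

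The other 3 genes did not pass the test. Cd48 (ENSMUSG00000015355.13, chromosome 1 from 171682009 to 171705258, plus strand), the ligand of the lymphocyte receptor CD244, stood at 113, 115 and 118 CPM in M0 and at 128, 113 and 119 CPM in IFNγ + LPS, and the groups overlapped. Its log2 fold change was 0.06 (standard error 0.06, edgeR adjusted p = 0.421). Scaling by library size only, which shifts the median of all genes by -0.46, turned it to -0.41, and it then passed the test as lower (edgeR adjusted p = 4.96e-08).

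Icosl (ENSMUSG00000000732.8, chromosome 10 from 78069302 to 78083913, plus strand), the ligand of the T cell receptor ICOS, stood at 12.6, 15.6 and 11.8 CPM in M0 and at 12.8, 10.6 and 9.55 CPM in IFNγ + LPS, with overlap between the groups. The log2 fold change was -0.29 (standard error 0.16, edgeR adjusted p = 0.0936). It passed the test without M0 replicate 3, at -0.37, without IFNγ + LPS replicate 1, at -0.40, and with library size only, at -0.76. Havcr2 (ENSMUSG00000020399.14, chromosome 11 from 46454935 to 46481255, plus strand), which encodes TIM-3, stood at 43.9, 45.9 and 42.7 CPM in M0 and at 34.1, 35.5 and 48.3 CPM in IFNγ + LPS. The last of these inflammatory libraries lay above all resting ones and the other two below them. The log2 fold change was -0.17 (standard error 0.10, edgeR adjusted p = 0.138), and it passed the test without IFNγ + LPS replicate 3, at -0.34, and with library size only, at -0.64. All 10 genes were thus called under the scaling by library size only.

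**Figure D2:**
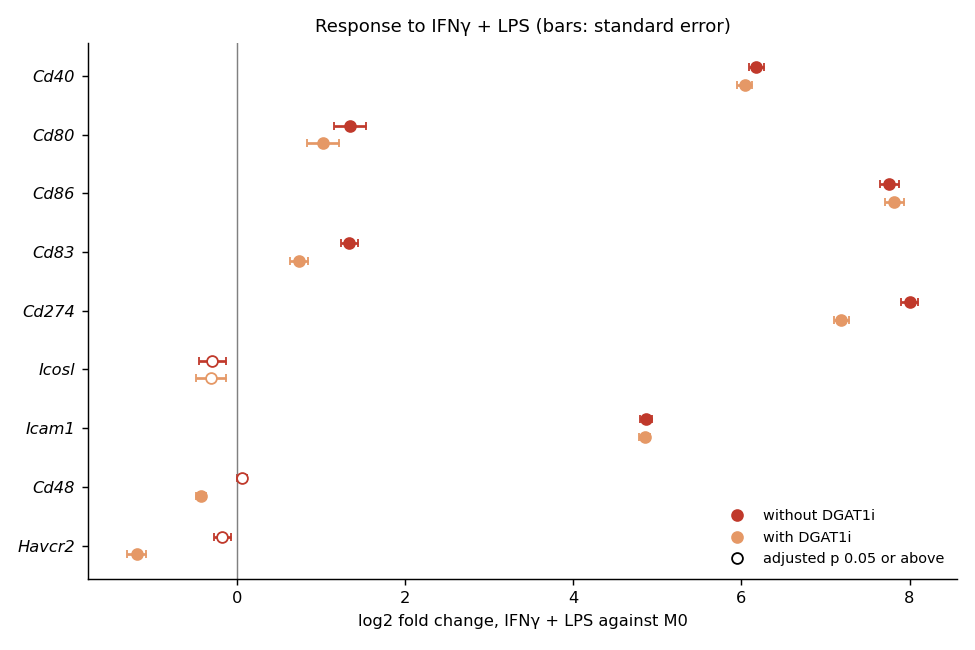
Log2 fold change of IFNγ + LPS against M0 (x axis) for 9 of the 10 genes (y axis), without and with DGAT1i, with bars of 1 standard error and open points where the adjusted p was 0.05 or above. Pdcd1lg2 is left out because M0 held 0 reads. Cd274, Cd86, Cd40 and Icam1 lie between 4.85 and 8.0 in both settings, and the points of Cd48 and Havcr2 are closed, below 0, only with DGAT1i.

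Activation therefore reordered the 10 genes. In M0 the order by level per kilobase was Cd48 at 97.0 CPM, Havcr2 at 16.2, Cd83 at 11.8, Icam1 at 8.11, Cd274 at 3.17, Cd40 at 3.03, Icosl at 2.89, Cd80 at 1.37, Cd86 at 0.556 and Pdcd1lg2 at 0. Cd274, Cd40 and Icosl, neighbours in that order, overlapped between libraries. After IFNγ + LPS the order was Cd274 at 813 CPM per kilobase, Icam1 at 237, Cd40 at 221, Cd86 at 122, Cd48 at 101, Cd83 at 30.1, Havcr2 at 14.4, Cd80 at 3.51, Icosl at 2.38 and Pdcd1lg2 at 2.06. Here Icam1 and Cd40 overlapped between libraries, as did Icosl and Pdcd1lg2. Cd48 thus went from the highest of the 10 genes to the fifth while its own change did not pass the test. Cd274 supplied 1.81% to 2.65% of the summed level per kilobase of the 10 genes in the M0 libraries and 51.2% to 54.3% in the IFNγ + LPS libraries.

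**Figure D3:**
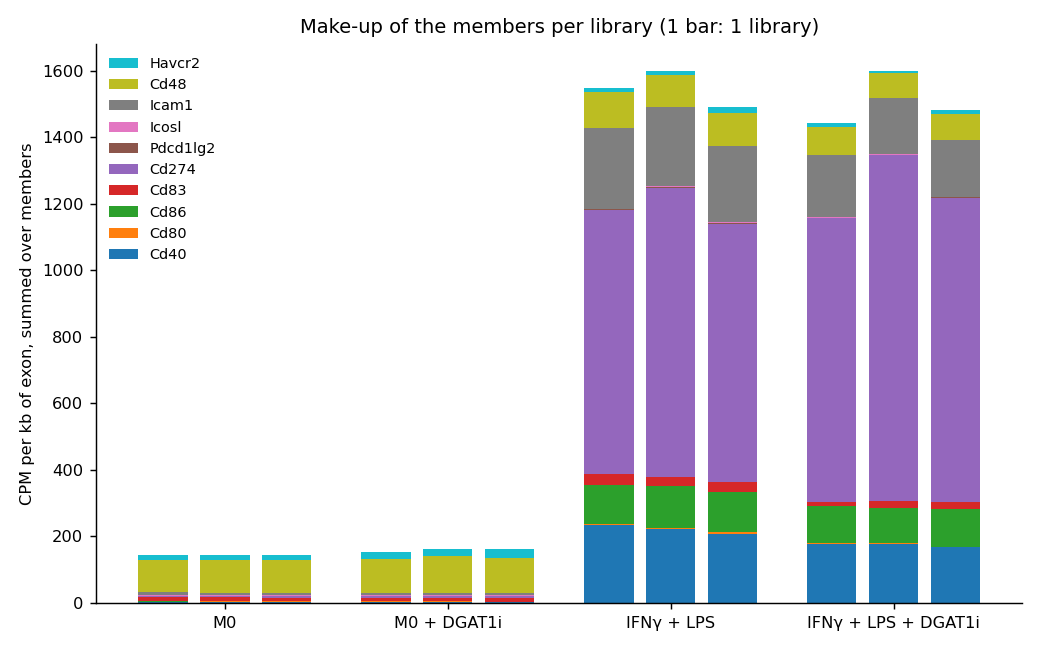
CPM per kilobase of exon, summed over the 10 genes (y axis), with 1 bar for each of the 12 libraries (x axis) and a colour for each gene. The sum is 143 to 163 in the 6 libraries without IFNγ + LPS, mostly Cd48, and 1443 to 1600.3 in the 6 libraries with it, where Cd274 holds the largest part.

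Promoter sequence was at hand for 7 of the 10 genes (RefSeq, GRCm38.p6), and the 250 bases before the RefSeq start are shown for the 3 strongly induced genes among them, Cd274, Pdcd1lg2 and Icam1, because IFNγ and LPS are known to act through IRF and NF-κB factors, among others. Capitals mark matches, on either strand, to an IRF core (AANNGAAA), the NF-κB consensus or a short κB form (GGAANNTCC), the last 2 of which can overlap. The windows are chr19:29367188-29367437, chr19:29410669-29410918 and chr9:21015690-21015939, all on the plus strand, 5′ to 3′.
Cd274: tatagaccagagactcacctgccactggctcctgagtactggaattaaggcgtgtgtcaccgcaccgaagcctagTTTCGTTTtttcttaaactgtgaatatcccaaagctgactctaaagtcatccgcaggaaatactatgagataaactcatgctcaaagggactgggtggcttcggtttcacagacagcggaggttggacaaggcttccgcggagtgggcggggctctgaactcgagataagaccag
Pdcd1lg2: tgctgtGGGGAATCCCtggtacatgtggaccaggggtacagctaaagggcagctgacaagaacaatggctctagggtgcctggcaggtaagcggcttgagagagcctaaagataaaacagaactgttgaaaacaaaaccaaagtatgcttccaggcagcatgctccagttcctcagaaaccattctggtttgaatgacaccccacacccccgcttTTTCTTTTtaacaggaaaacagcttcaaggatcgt
Icam1: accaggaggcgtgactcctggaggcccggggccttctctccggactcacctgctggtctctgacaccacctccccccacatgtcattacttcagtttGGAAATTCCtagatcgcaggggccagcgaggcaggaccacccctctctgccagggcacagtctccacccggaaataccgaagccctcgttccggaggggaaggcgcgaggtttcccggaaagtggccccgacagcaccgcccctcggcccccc

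The Cd274 window held an IRF core match on the minus strand, 175 to 168 bases before the start. The Pdcd1lg2 window held an NF-κB consensus match 244 to 235 bases and an IRF core match 35 to 28 bases before the start, so that the 2 neighbouring genes shared the IRF core letters and only Pdcd1lg2 had the NF-κB letters in this window. The Icam1 window held a short κB match 153 to 145 bases before the start. Among 32841 RefSeq windows of this length, 21.3% held an IRF core match, 7.25% an NF-κB consensus match and 3.59% a short κB match. Of the 4 other genes with a window, Cd48 held an IRF core match and Icosl an NF-κB consensus match, and these letters were not in the windows of Cd80 and Havcr2.

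The second comparison asked what blocking DGAT1 does to these genes in inflammatory macrophages. DGAT1i lowered 6 of the 10 genes and raised 1. Cd83 fell most, Havcr2, Icam1, Cd40 and Cd48 fell by smaller amounts and Cd86 least, whereas Cd274 rose slightly. Of all genes tested, 29.8% were called, 13.5% as higher and 16.3% as lower. The median log2 fold change of the 10 genes was -0.34, against -0.01 for all genes tested.

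Cd83 in the IFNγ + LPS libraries with DGAT1i stood at 33.6, 46.7 and 49.0 CPM, all below the 70.6 to 89.3 CPM of the untreated libraries. This was a log2 fold change of -0.85 (standard error 0.10, edgeR adjusted p = 1.56e-08), which brought the gene to 0.556 times its level. All 3 treated libraries still lay above the 28.7 to 32.3 CPM of M0.

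Havcr2 stood at 30.1, 22.9 and 30.1 CPM with DGAT1i, below each of the 3 untreated inflammatory libraries. Its log2 fold change was -0.51 (standard error 0.12, edgeR adjusted p = 7.64e-04). Icam1 stood at 815, 732 and 746 CPM with DGAT1i, again with no overlap with the untreated libraries. Its log2 fold change was -0.43 (standard error 0.05, edgeR adjusted p = 1.96e-09). The level of Icam1 nevertheless stayed far above that of M0 in all 3 treated libraries.

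Cd40 stood at 606, 606 and 569 CPM with DGAT1i, lower than every untreated inflammatory library (log2 fold change -0.34, standard error 0.06, edgeR adjusted p = 2.32e-05). Cd48 stood at 101, 88.7 and 93.2 CPM, also without overlap (log2 fold change -0.34, standard error 0.07, edgeR adjusted p = 4.32e-05). The receptor and the adhesion ligand thus had the same log2 fold change, although IFNγ + LPS had raised the former 72.6-fold and left the latter without a call.

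Cd86 stood at 402, 385 and 417 CPM with DGAT1i, just below the 430.2 to 461 CPM in untreated libraries. This amounted to a log2 fold change of -0.16 (standard error 0.06, edgeR adjusted p = 0.0281). The call was lost without IFNγ + LPS replicate 2, at -0.14, without IFNγ + LPS replicate 3, at -0.16, and without replicate 2 of the treated group, at -0.13. Cd80 stood at 10.3, 14.2 and 9.34 CPM with DGAT1i, overlapping the untreated libraries, and did not pass the test (log2 fold change -0.20, standard error 0.17, edgeR adjusted p = 0.434).

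Cd274 was the exception in direction. With DGAT1i it stood at 3089, 3766 and 3315 CPM, and the lowest of these lay below the highest untreated library. The change was 0.20 on the log2 scale (standard error 0.06, edgeR adjusted p = 0.0159), a 1.15-fold rise. The call was lost without IFNγ + LPS replicate 1, at 0.18, without IFNγ + LPS replicate 3, at 0.17, and without replicate 2 of the treated group, at 0.12. Its neighbour Pdcd1lg2 held 14, 22 and 16 reads with DGAT1i and did not pass the test (log2 fold change -0.13, standard error 0.31, edgeR adjusted p = 0.802). With so few reads, a change of the size seen for Cd274 was not detectable for Pdcd1lg2.

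Icosl stood at 7.82, 9.39 and 6.54 CPM with DGAT1i, below all untreated inflammatory libraries by a small margin. The log2 fold change of -0.46 (standard error 0.19, edgeR adjusted p = 0.0613) did not pass the test. It did so without IFNγ + LPS replicate 3, at -0.55, and without replicate 2 of the treated group, at -0.60.

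Per kilobase, Cd274 stood at 936 CPM in the treated inflammatory group, and Icam1 at 175, Cd40 at 174, Cd86 at 109.7, Cd48 at 79.4, Cd83 at 16.8, Havcr2 at 10.2, Cd80 at 3.04, Pdcd1lg2 at 1.90 and Icosl at 1.71. The order was that of the untreated inflammatory group, except that Pdcd1lg2 and Icosl, which overlapped between libraries, changed places. Cd274 held 59.1% to 65.0% of the summed level per kilobase in the treated libraries, above its share in every untreated one. The ratio of Cd40 to Cd274 per kilobase was 25.5% to 29.4% without and 17.1% to 20.9% with DGAT1i.

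The third comparison asked whether DGAT1i acts on these genes in resting macrophages. It changed 4 of the 10 genes: Cd274 and Havcr2 rose, and Icam1 and Icosl fell. Of all genes tested, 24.4% were called, 11.0% as higher and 13.4% as lower. The median log2 fold change of the 10 genes was -0.03, against 0.00 for all genes tested, and -0.19 over the 9 genes other than Pdcd1lg2, whose fitted value rests on a single read.

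Cd274 in M0 with DGAT1i stood at 21.8, 23.6 and 24.0 CPM, from 164, 166 and 182 reads, and every library was above every M0 library. The gene rose by 1.01 on the log2 scale (standard error 0.12, edgeR adjusted p = 1.42e-07), a 2.02-fold rise that was the 101st highest of all 11760 genes. The level reached was still a small part of that in inflammatory macrophages. Pdcd1lg2 had 1 read in all in the 3 treated M0 libraries, and no fold is given.

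Havcr2 stood at 60.7, 60.5 and 68.0 CPM in M0 with DGAT1i, well above the M0 libraries (log2 fold change 0.51, standard error 0.09, edgeR adjusted p = 1.78e-05). Icam1 stood at 25.2, 25.8 and 28.1 CPM, below all M0 libraries (log2 fold change -0.42, standard error 0.08, edgeR adjusted p = 9.84e-05). In neither gene did the groups overlap.

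Icosl stood at 9.17, 10.9 and 9.50 CPM in M0 with DGAT1i, below the M0 libraries (log2 fold change -0.44, standard error 0.15, edgeR adjusted p = 0.0232). The call was lost without M0 replicate 2, at -0.31, without replicate 1 of the treated group, at -0.39, without replicate 3 of the treated group, at -0.42, and with DESeq2, at -0.46.

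Of the 6 other genes, Cd83 and Cd48 came closest to the threshold without passing it. Their groups did not overlap, but how often that holds over all genes tested was not counted. Cd83 stood at 25.2, 26.3 and 25.5 CPM with DGAT1i (log2 fold change -0.25, standard error 0.11, edgeR adjusted p = 0.109), and Cd48 at 122, 131 and 127 CPM (log2 fold change 0.14, standard error 0.06, edgeR adjusted p = 0.0803). Both passed the test when only the libraries compared were fitted, Cd83 at -0.24 and Cd48 at 0.14, and Cd83 also with library size only, at -0.30. Cd40 at 9.96, 11.2 and 6.07 CPM, Cd86 at 0.797, 1.85 and 2.64 CPM and Cd80 at 5.84, 5.68 and 5.15 CPM overlapped the M0 libraries, with log2 fold changes of -0.19, -0.21 and 0.12 and edgeR adjusted p-values of 0.384, 0.69 and 0.728.

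**Figure D4:**
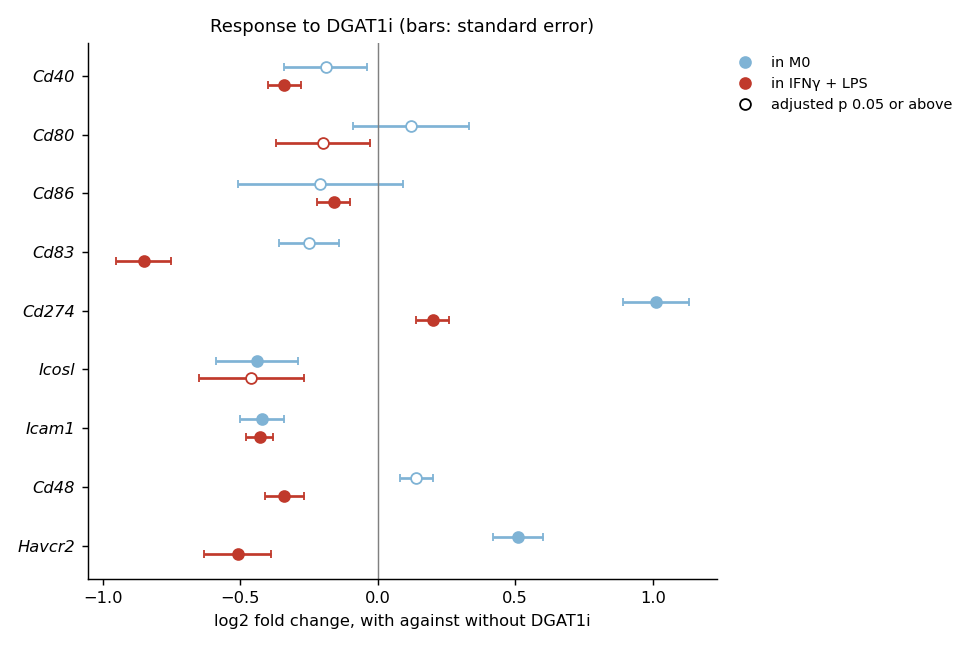
Log2 fold change with against without DGAT1i (x axis) for 9 of the 10 genes (y axis) in M0 and in IFNγ + LPS, with bars of 1 standard error and open points where the adjusted p was 0.05 or above. Icam1 sits at nearly the same value in both states, Cd274 at 1.01 in M0 and 0.20 in IFNγ + LPS, and Havcr2 on opposite sides of 0. Pdcd1lg2 is left out because M0 held 0 reads.

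The responses to DGAT1i in the 2 states were then compared within the same model. The response in IFNγ + LPS was lower than that in M0 for 4 of the 10 genes, Havcr2, Cd274, Cd83 and Cd48, and the other 6 did not pass the test. Of all genes tested, 18.5% were called, 8.66% as higher and 9.80% as lower. The median over the 10 genes was -0.40, against -0.01 for all genes tested, and -0.32 without Pdcd1lg2.

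Havcr2 differed most, by -1.02 (log2, standard error 0.15, edgeR adjusted p = 1.41e-06), and its direction was opposite in the 2 states. Cd274 differed by -0.81 (standard error 0.14, edgeR adjusted p = 8.31e-05), rising in both states with the larger log2 fold change in M0. In CPM its mean went from 11.5 to 23.1 in M0 and from 2944 to 3390 in IFNγ + LPS, so the larger gain in level was in IFNγ + LPS. Cd83 differed by -0.60 (standard error 0.15, edgeR adjusted p = 0.00349) and Cd48 by -0.48 (standard error 0.09, edgeR adjusted p = 4.25e-05), and both fell in IFNγ + LPS while missing the threshold in M0. Of the genes without a call, Icam1 and Icosl gave the smallest differences, both -0.02, with standard errors of 0.10 and 0.24. Cd40 gave -0.15 (standard error 0.16), Cd80 -0.32 (standard error 0.27) and Cd86 0.05 (standard error 0.30), and M0 held too few reads of Pdcd1lg2 for a standard error.

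Under DGAT1i, IFNγ + LPS still raised the same 7 genes that it raised without it, namely Cd40, Cd80, Cd86, Cd83, Cd274, Pdcd1lg2 and Icam1. It lowered Cd48 and Havcr2, and Icosl was the 1 gene without a call. Of all genes tested, 70.6% were called, 35.3% as higher and 35.3% as lower. The median log2 fold change of the 10 genes was 2.94, against -0.01 for all genes tested, and 1.03 without Pdcd1lg2.

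Cd86 rose by 7.82 on the log2 scale (standard error 0.11, edgeR adjusted p = 4.21e-51), Cd274 by 7.19 (standard error 0.09, edgeR adjusted p = 6.96e-34) and Cd40 by 6.04 (standard error 0.09, edgeR adjusted p = 1.71e-38). Cd274, which led without the inhibitor, therefore came after Cd86 with it. Icam1 rose by 4.85 (standard error 0.07), Cd80 by 1.03 (standard error 0.19) and Cd83 by 0.74 (standard error 0.11), with edgeR adjusted p-values of 1.69e-51, 4.60e-06 and 3.27e-07. Pdcd1lg2 went from 1 read to 52 reads over the groups, or 82.7 times as much after scaling (95% interval of the counts, 14.2 to 3327) (edgeR adjusted p = 4.90e-11). Cd48 fell by 0.43 (standard error 0.06, edgeR adjusted p = 4.12e-08) and Havcr2 by 1.19 (standard error 0.11, edgeR adjusted p = 2.83e-13). For these 2 genes the libraries with both treatments lay below those of M0 with DGAT1i without overlap. Icosl gave -0.31 (standard error 0.18, edgeR adjusted p = 0.13), and passed the test with library size only, at -0.73.

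Genes that act with the 10 were described from 14 lists, by counts out of those tested. Of all genes tested, 73.3% were called for IFNγ + LPS, 29.8% for DGAT1i in IFNγ + LPS and 24.4% for DGAT1i in M0, and the counts stand beside these shares. Of 10 tested genes of other B7-type and related ligands, IFNγ + LPS raised 5 and lowered 4, with a median log2 fold change of 0.86. The 4 lowered were Cd276, Vsir, Ceacam1 and Sirpa, by 2.57, 2.39, 2.14 and 1.06 on the log2 scale. Cd200, whose receptor restrains myeloid cells, rose by 4.08 (standard error 0.15, edgeR adjusted p = 4.20e-32), and Tnfrsf14, which encodes the BTLA ligand HVEM, by 3.27 (standard error 0.23, edgeR adjusted p = 3.41e-08). DGAT1i in IFNγ + LPS raised 4 of the 10 and lowered 2. Cd276, which encodes B7-H3, went from 3, 5 and 7 reads to 18, 11 and 15 reads (log2 fold change 1.70, standard error 0.42, edgeR adjusted p = 0.00114). At 3.17 ± 0.763 CPM with both treatments, Cd276 stayed below its 5.76 ± 1.63 CPM in M0 (SD, n = 3). Nectin2, a ligand of DNAM-1 and TIGIT, went from 38, 51 and 36 reads to 87, 80 and 83 reads (log2 fold change 1.17, standard error 0.17, edgeR adjusted p = 1.39e-07). In M0 1 of the 10 was called, Pvr, which rose by 0.53 (standard error 0.11, edgeR adjusted p = 1.52e-04).

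Among 6 tested ligands of the TNF family, not all of them co-stimulatory, IFNγ + LPS raised 4 and lowered 1. Tnfsf10, which encodes the death ligand TRAIL, rose from 0.646 ± 0.133 to 97.7 ± 2.08 CPM (SD, n = 3; edgeR adjusted p = 3.27e-41). DGAT1i lowered 3 of the 6 in IFNγ + LPS and 1 in M0. Tnfsf15, which encodes TL1A, fell in IFNγ + LPS with DGAT1i by 1.33 on the log2 scale (standard error 0.21, edgeR adjusted p = 1.00e-06) and Tnfsf10 by 0.67 (standard error 0.08, edgeR adjusted p = 2.84e-09).

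Among 16 tested genes of cell contact and the SLAM family, to which Cd48 belongs, IFNγ + LPS raised 10 and lowered 6. DGAT1i in IFNγ + LPS raised 2 and lowered 9, and in M0 it raised 5 and lowered 3. Itgal, which encodes the chain of LFA-1 that binds ICAM-1, rose from 7.67 ± 2.57 CPM in M0 to 299 ± 38.1 CPM in IFNγ + LPS (SD, n = 3; log2 fold change 5.27, standard error 0.19, edgeR adjusted p = 1.47e-09). It thus came up in the same cultures as its ligand Icam1. With DGAT1i it fell by 0.66 in IFNγ + LPS (standard error 0.13, edgeR adjusted p = 0.00366) and rose by 1.03 in M0 (standard error 0.29, edgeR adjusted p = 0.0267). The difference of -1.69 between these responses passed the test (standard error 0.31, edgeR adjusted p = 0.00428). Its partner chain Itgb2 rose by 1.27 with IFNγ + LPS (standard error 0.05, edgeR adjusted p = 4.38e-30) and gave -0.01 with DGAT1i in IFNγ + LPS (edgeR adjusted p = 0.933). In M0 DGAT1i raised Itgb2 by 0.23 (standard error 0.05, edgeR adjusted p = 3.28e-04), and the difference of -0.24 passed the test (standard error 0.07, edgeR adjusted p = 0.0123). Slamf9 fell by 1.34 (standard error 0.11, edgeR adjusted p = 3.75e-13) and Slamf6 by 1.24 (standard error 0.20, edgeR adjusted p = 2.22e-06) with DGAT1i in IFNγ + LPS. Slamf8, a receptor of the same family that macrophages carry, rose by 6.16 with IFNγ + LPS (standard error 0.08, edgeR adjusted p = 2.28e-54).

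Of 16 genes of CD40 and NF-κB signalling, IFNγ + LPS raised all 16. DGAT1i in IFNγ + LPS lowered 11 and raised 1, with a median log2 fold change of -0.28 against -0.01 for all genes tested, and in M0 it lowered 3 and raised 1. Traf1, an adaptor of the CD40 tail, rose by 6.14 with IFNγ + LPS (standard error 0.10, edgeR adjusted p = 9.47e-50) and fell by 0.51 with DGAT1i in that state (standard error 0.06, edgeR adjusted p = 2.57e-10), while in M0 it gave 0.03 (edgeR adjusted p = 0.953), and the difference of -0.53 did not pass the test (standard error 0.21, edgeR adjusted p = 0.0685). Nfkb1 also fell in IFNγ + LPS with DGAT1i, by 0.61 (standard error 0.06, edgeR adjusted p = 2.96e-13) and Nfkb2, which encodes the subunit processed after CD40 engagement, by 0.59 (standard error 0.05, edgeR adjusted p = 6.22e-13), and in M0 they fell by 0.23 and 0.22 (edgeR adjusted p = 0.00196 and 0.019). Birc3, a ubiquitin ligase of the CD40 complex, rose by 3.28 with IFNγ + LPS (standard error 0.07, edgeR adjusted p = 1.20e-42) and fell by 0.17 with DGAT1i in IFNγ + LPS (standard error 0.06, edgeR adjusted p = 0.0228), with 0.00 in M0 (edgeR adjusted p = 0.992), and its difference of -0.17 did not pass the test either (standard error 0.11, edgeR adjusted p = 0.309). Tnfaip3, which encodes the NF-κB inhibitor A20, rose by 0.51 with DGAT1i in M0 (standard error 0.08, edgeR adjusted p = 9.26e-07) and fell by 0.35 in IFNγ + LPS (standard error 0.05, edgeR adjusted p = 6.68e-07). Its difference of -0.86 passed the test (standard error 0.10, edgeR adjusted p = 6.99e-10). The list held 5 genes of 16 whose 2 responses to DGAT1i differed, all lower in IFNγ + LPS, while 9.80% of all genes tested were called lower for this difference.

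Of 14 genes of IFNγ signalling, IFNγ + LPS raised 13 and lowered 1. DGAT1i lowered 5 of them in IFNγ + LPS and 4 in M0 and raised none, while 16.3% and 13.4% of all genes tested were called lower. Irf1, an IFNγ-induced transcription factor, rose by 5.56 (standard error 0.07, edgeR adjusted p = 3.84e-56). With DGAT1i it gave -0.05 in IFNγ + LPS (edgeR adjusted p = 0.542) and fell by 0.47 in M0 (standard error 0.08, edgeR adjusted p = 1.40e-06), and the difference of 0.43 passed the test (standard error 0.09, edgeR adjusted p = 3.53e-04). Irf9 fell by 0.53 (standard error 0.07, edgeR adjusted p = 2.80e-08) and Stat3 by 0.39 (standard error 0.05, edgeR adjusted p = 7.55e-09) with DGAT1i in IFNγ + LPS.

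A list of 7 genes held the ubiquitin ligases March1 and March8 and the membrane proteins Cmtm6 and Cmtm4, which act on CD86 or PD-L1 at the cell surface, and also Cd74, the invariant chain of MHC class II, with Ctsl and Sppl2a, proteases that cut it. IFNγ + LPS raised 4 and lowered 3 of the 7. In IFNγ + LPS, DGAT1i raised Cmtm6, Cmtm4, Ctsl and Sppl2a and lowered Cd74, and in M0 it raised Ctsl alone. March1, a ubiquitin ligase that removes CD86 from the surface, rose by 2.99 with IFNγ + LPS (standard error 0.08, edgeR adjusted p = 6.76e-35) and gave 0.07 with DGAT1i in IFNγ + LPS (edgeR adjusted p = 0.414) and 0.05 in M0 (edgeR adjusted p = 0.787). Cmtm6, which protects PD-L1 from degradation, rose by 0.57 with IFNγ + LPS (standard error 0.06, edgeR adjusted p = 2.81e-12) and by 0.16 with DGAT1i in IFNγ + LPS (standard error 0.06, edgeR adjusted p = 0.0411), with 0.11 in M0 (edgeR adjusted p = 0.175) and a difference of 0.04 that did not pass the test (edgeR adjusted p = 0.779). Its relative Cmtm4 fell by 1.23 with IFNγ + LPS (standard error 0.09, edgeR adjusted p = 6.59e-18) and rose by 0.63 with DGAT1i in IFNγ + LPS (standard error 0.10, edgeR adjusted p = 2.91e-06). In M0 Cmtm4 gave 0.11 with DGAT1i (edgeR adjusted p = 0.32), and the difference of 0.52 passed the test (standard error 0.13, edgeR adjusted p = 0.00209). Surface protein was not measured here.

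Of a list of other TIM genes and reported TIM-3 partners, the 4 tested were the partners Lgals9, Ceacam1, Hmgb1 and Bag6, the first 2 of which also stand in the list of B7-type and related ligands. IFNγ + LPS raised 1 and lowered 3 of them. Lgals9, a galectin reported to bind TIM-3, rose by 2.84 with IFNγ + LPS (standard error 0.06, edgeR adjusted p = 4.54e-43) and fell by 0.27 with DGAT1i in IFNγ + LPS (standard error 0.05, edgeR adjusted p = 8.49e-05). Ceacam1, another reported TIM-3 partner, fell by 2.14 with IFNγ + LPS (standard error 0.28, edgeR adjusted p = 1.04e-09). DGAT1i lowered 2 of the 4 in IFNγ + LPS and 1 in M0. All 9 activation markers rose with IFNγ + LPS, and DGAT1i lowered 6 and raised 1 of them in IFNγ + LPS.

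The receptors of these molecules and markers of other cell types were read as a check on which cells were present. Of 11 T cell markers and receptors, 6 had no read in any library, among them Cd3e, Cd3g, Ctla4, Pdcd1 and Cd40lg, and Icos had at most 2 reads in a library. The 2 genes of the list with enough reads to be tested were Cd28 and Cd4. Cd28, the receptor of CD80 and CD86, stood at 30.0 ± 5.00 CPM in M0 and 0.974 ± 0.689 CPM in IFNγ + LPS (SD, n = 3; log2 fold change -4.93, standard error 0.25, edgeR adjusted p = 1.84e-23). It stood at 24.6 ± 2.61 CPM in M0 with DGAT1i and at 1.23 ± 0.179 CPM in IFNγ + LPS with DGAT1i (SD, n = 3). Cd28 thus fell where its ligand Cd86 rose, in libraries without a read of Cd3e or Cd3g. Cd4, a co-receptor of helper T cells, stood at 2.99 ± 0.731 CPM in M0 and 1.26 ± 0.392 CPM in IFNγ + LPS (SD, n = 3; log2 fold change -1.22, standard error 0.38, edgeR adjusted p = 0.00342), and fell by 1.37 with IFNγ + LPS under DGAT1i (standard error 0.35, edgeR adjusted p = 3.87e-04).

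Markers of B cells, mast cells and basophils were near 0. The 5 B cell markers summed to at most 2.66 CPM and the 5 mast cell and basophil markers to at most 0.233 CPM in any library. Of 9 dendritic cell markers, IFNγ + LPS raised 3 of the 4 tested, and DGAT1i lowered 3 of the 4 in IFNγ + LPS. Their sum ranged from 96.9 to 116 CPM in M0, 87.1 to 115 CPM in IFNγ + LPS, 86.3 to 111 CPM in M0 with DGAT1i and 64.4 to 75.3 CPM in both treatments together, most of it Itgax, which macrophages also express. Other markers of the list moved at low levels. Clec9a, a receptor of cross-presenting dendritic cells, had 1 read in all in M0 and stood at 8.17 ± 1.68 CPM in IFNγ + LPS and 2.43 ± 0.407 CPM in both treatments together (SD, n = 3), a fall with DGAT1i of 1.73 on the log2 scale (standard error 0.29, edgeR adjusted p = 3.52e-06). Xcr1, a chemokine receptor of the same cells, also had 1 read in M0 and stood at 5.53 ± 0.685 CPM in IFNγ + LPS and 0.871 ± 0.399 CPM in both treatments (SD, n = 3), a fall of 2.65 (standard error 0.41, edgeR adjusted p = 4.93e-07). Ccr7, which guides mature dendritic cells to lymph nodes, had 0 reads in M0 and stood at 3.33 ± 1.48 CPM in IFNγ + LPS and 4.28 ± 1.75 CPM in both treatments (SD, n = 3). Flt3 and Zbtb46 held at most 1 and 5 reads in any library. The part of these markers in the results for the 10 genes was not tested.

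Neutrophil and precursor markers moved with DGAT1i in IFNγ + LPS, where all 4 tested of 9 rose. Their sum was 31.6 to 38.7 CPM in M0, 15.2 to 25.5 CPM in IFNγ + LPS, 23.0 to 29.3 CPM in M0 with DGAT1i and 63.2 to 81.5 CPM in both treatments together. S100a8, the most abundant of them, went from 9.13 ± 1.19 to 34.5 ± 6.26 CPM (SD, n = 3; edgeR adjusted p = 9.20e-16). Ngp rose by 2.68 (standard error 0.34, edgeR adjusted p = 1.45e-08) and Ltf by 2.12 (standard error 0.43, edgeR adjusted p = 1.06e-04), both genes of neutrophil granules. IFNγ + LPS without DGAT1i had lowered Ngp by 2.60 and Ltf by 2.93 (edgeR adjusted p = 9.28e-10 and 4.55e-10). Under DGAT1i, IFNγ + LPS against M0 gave 0.50 for Ngp and -0.42 for Ltf (edgeR adjusted p = 0.046 and 0.165). It gave 2.72 for S100a8 and 1.84 for S100a9 (edgeR adjusted p = 4.67e-23 and 2.87e-08). Ly6g had no read in any library, and Mpo and Elane were at 0 in the IFNγ + LPS libraries. The part of these markers in the falls of Cd83, Havcr2, Icam1, Cd40, Cd48 and Cd86 was not tested.

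The genes most like each of the 10 were sought by Pearson r of log2 CPM over the 12 libraries, among 10151 genes, as a description only, since the 4 groups set most of the spread. Among the 3 closest genes of Cd40 were H2-T24 and Slfn4. Cd86 was most like Calhm6, Oasl2 and Slfn1, Cd274 most like Gla, Sqstm1 and Slfn5, and Icam1 most like Rtp4, Tapbpl and Mx1, and these and the companions of Cd40 all had r of 0.999. Cd83 was most like Akna (r 0.984), Irf9 (0.981) and Prrc2a (0.974), and Cd80 most like Arl4a (0.977), Pafah1b1 (0.975) and Mff (0.974). Cd48 was most like Cd22 (0.967), Havcr2 most like H1f0 (0.948) and Icosl most like Pigq (0.940), so that the 3 genes without a call after IFNγ + LPS had looser companions than the induced ones. Pdcd1lg2, which rests on few reads, was most like Nupr1 (0.997).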

How the data were processed

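Libraries of bone marrow-derived macrophages were read in 4 groups of 3, as the sample titles give them. The authors deposited raw read counts per gene for the 12 libraries, without normalization. The submitters' processing notes name the build GRCm38 and DESeq2, and the study's methods cite the snakePipes pipeline; for the aligner, the counting tool, its strand setting and the annotation release, nothing is given in the sources used here. The deposited labels name a NEBNext low-input kit and the study's methods a TruSeq stranded kit, so whether strand was kept is open. Of 47937 identifiers, 47224 matched GENCODE M21 without their version, 39106 with it, and 713 had no symbol.

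The test was that of edgeR 4.0.16 under R 4.3.3 (filterByExpr, TMM, glmQLFit with robust estimation on all 12 libraries, 1 mean per group, glmQLFTest), with Benjamini-Hochberg adjustment over 11760 genes and a threshold of 0.05. There were 5 contrasts: IFNγ + LPS against M0 without and with DGAT1i, DGAT1i in each state, and the difference between the DGAT1i responses. Levels per kilobase divide CPM by the length of the merged exons. A group with 0 reads was set to a floor of 3 reads, and with 1 to 3 reads a ratio has an exact 95% interval. Depth was 4996014 to 6621671 reads per library. The fits were tested on simulated data. There, fewer known changes were recovered for the difference between the DGAT1i responses than for the other contrasts, and the recovery required of that contrast was lowered after a run fell just short of it.

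The 10 genes and the 14 lists were chosen with earlier results of these data known. The text names the 10 genes, for each list and comparison up to 2 genes with the largest fold changes among those that were called and averaged a log2 CPM of 2 or more, chosen partners of the 10 genes, and for likeness the 3 genes with the highest r, or the first alone for Cd48, Havcr2, Icosl and Pdcd1lg2. Not every list gene that the rule chose is given. The markers S100a8, Flt3, Zbtb46, Clec9a, Xcr1, Ccr7, Cd4, Ly6g, Mpo, Elane, Cd3e and Cd3g and the list genes Vsir and Sirpa were named after their values were seen. Alternatives were RLE factors, library size only, no filter beyond a read, a mean CPM filter at 1, DESeq2 1.42.0, only the libraries compared, a replicate block, each library left out in turn, and a threshold of 0.01. A further gene and motif are not reported here. Plots were made in Python 3.11.15 (matplotlib 3.10.9).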

Additional observations from a re-analysis of the deposited data

Results flagged for a closer look

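For 4 of the 10 genes, the response to DGAT1i differed between inflammatory and resting macrophages by edgeR's test of the difference itself, given here as the log2 response in IFNγ + LPS minus that in M0. Havcr2 gave -1.02, with a fall in all 3 inflammatory libraries with DGAT1i below those without it and a rise in all 3 resting ones. Cd274 gave -0.81, from a rise of 1.01 in M0 and of 0.20 in IFNγ + LPS, the latter with overlapping groups and without a call when any of 3 libraries was left out (0.12 to 0.18). Cd83 gave -0.60 and Cd48 gave -0.48, each with a fall in IFNγ + LPS and without a call in M0. The edgeR adjusted p-values were 1.41e-06, 8.31e-05, 0.00349 and 4.25e-05, and with each library left out or another setting they stayed below the threshold, the highest being 1.78e-05, 9.52e-04, 0.0172 and 4.05e-04. Neutrophil and precursor markers were also higher with DGAT1i in IFNγ + LPS, and their part in these differences was not tested.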

How the results depend on the processing

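Of 939 recomputed values for the 50 fold changes of the 10 genes, 898 kept their direction and side of the threshold, 10 lost a call, 11 gained one and 20 turned sign, spread over 17 fold changes. Scaling by library size only leaves out the TMM factors. These were 1.19 in M0 and 0.846 to 0.869 in IFNγ + LPS. With DGAT1i they were 1.14 to 1.16 in M0 and 0.851 to 0.859 in IFNγ + LPS. Why the factors differ between groups was not tested. Without them the median of all genes shifted to -0.46 for IFNγ + LPS and -0.43 for it under DGAT1i. Scaling by library size only turned Cd48 to -0.41 for IFNγ + LPS, and the difference between the DGAT1i responses to 0.03 for Icosl and 0.03 for Icam1, while RLE factors gave 0.00 for Icam1. Library size only also moved the share of higher calls from 50.6% to 25.0% for IFNγ + LPS, from 50.0% to 25.5% under DGAT1i, from 45.2% to 29.7% for DGAT1i in M0 and from 46.9% to 58.2% for the difference. With each library left out in turn, signs turned for Pdcd1lg2 with DGAT1i in IFNγ + LPS (-0.32 to 0.10), for Cd40 (-0.37 to 0.03) and Cd86 (-0.64 to 0.15) with DGAT1i in M0, and, for the difference, for Icosl (-0.16 to 0.10), Cd40 (-0.37 to 0.02), Cd86 (-0.30 to 0.48) and Icam1 (-0.11 to 0.04), none of which was called. A threshold of 0.01 reduced the genes called for the difference from 2171 to 1350. Over all settings, the number of the 10 genes called was 7 to 10 for IFNγ + LPS, 5 to 7 and 3 to 6 for DGAT1i in IFNγ + LPS and M0, 9 to 10 for IFNγ + LPS under DGAT1i and 4 for the difference. The deviations of same-numbered libraries correlated weakly (r from -0.0217 to 0.0687 over 18 pairs, against -0.058 to 0.0381 for other pairs), and the numbers were not taken as pairs. With a replicate block, the calls among the 10 genes stayed at 7, 7, 4, 9 and 4 in the order of this list, and the genes called in all moved from 8615 to 8635, from 3508 to 3568, from 2869 to 2959, from 8303 to 8310 and from 2171 to 2268, and 9 of 12 libraries were closest to those of their own number, a hint from the data and not from the design. Pdcd1lg2 rests on 0 and 1 reads in the groups without IFNγ + LPS and on 64 and 52 reads in those with it, and 3 libraries per group limit calls on small changes such as those of Icosl, Cd80 and Cd86.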
